A study of Rattus norvegicus with 6 samples.

Results

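The 9 genes described here encode subunits of the NADPH oxidases, and all 9 were found by symbol among the 33509 genes of the table: Cybb, Cyba, Ncf1, Ncf4, Rac2, Nox1, Nox4, Duox1 and Duox2. They were measured by RNA-seq in myocardial tissue of Sprague-Dawley rats, in 6 libraries. Of these, 3 came from rats with induced acute infarction (MOD 1 to 3) and 3 from such rats given XHT (XHT 1 to 3), which the series title calls Xinhuitong. Both groups therefore carry the infarction, and there was no uninfarcted group among the libraries analysed here. The labels gave neither dose, time after infarction, age, region of the heart nor whether a library was 1 animal, so the spread behind each p-value is that between these libraries and may be technical. The genes were chosen from this same contrast, in which Cybb had the seventh lowest p of 14488 tested genes, so their differences between XHT and MOD are given as a description and not as a test.

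NADPH oxidases move electrons from NADPH across a membrane to oxygen, and their product is superoxide or hydrogen peroxide. The phagocyte enzyme is built on a membrane pair, the catalytic chain gp91phox (also NOX2, from Cybb) and its stabilising partner p22phox (Cyba). It is switched on when cytosolic proteins, among them p47phox (Ncf1) and p40phox (Ncf4), and the GTPase Rac join that pair. Nox1 and Nox4 encode other catalytic chains that also use p22phox, and Nox4, which needs no cytosolic organiser, is known from fibroblasts, vascular cells and cardiac muscle. Duox1 and Duox2 encode the large dual oxidases of thyroid and mucosal epithelium, which depend on the maturation factors Duoxa1 and Duoxa2.

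The upstream sequences of 3 subunits are shown because Cybb and Cyba, which form the membrane pair, were both lower in XHT and Ncf1 was not. Each is the stretch of 250 bases before the RefSeq start on build GRCr8, read 5′ to 3′ on the gene's strand, at chrX:16065066-16065315 (minus strand) for Cybb, chr19:67404215-67404464 (minus strand) for Cyba and chr12:28121635-28121884 (plus strand) for Ncf1. The deposited table, whose build is unnamed, gives Cybb on the plus strand, and this difference was not resolved. For the other genes with a window both sources give the same strand. Capitals mark matches to 5 motifs searched on both strands. They are GAGGAA (core of the site for PU.1, the myeloid factor encoded by Spi1), the CCAAT box, the AP-1 motif TGANTCA, the interferon-stimulated element (GAAA, any 2 bases, then GAAA) and the TATAAA box.
Cybb: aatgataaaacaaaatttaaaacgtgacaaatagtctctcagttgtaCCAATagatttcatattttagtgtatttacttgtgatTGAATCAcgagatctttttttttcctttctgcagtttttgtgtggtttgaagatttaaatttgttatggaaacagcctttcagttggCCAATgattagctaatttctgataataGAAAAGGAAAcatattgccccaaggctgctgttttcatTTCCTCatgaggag
Cyba: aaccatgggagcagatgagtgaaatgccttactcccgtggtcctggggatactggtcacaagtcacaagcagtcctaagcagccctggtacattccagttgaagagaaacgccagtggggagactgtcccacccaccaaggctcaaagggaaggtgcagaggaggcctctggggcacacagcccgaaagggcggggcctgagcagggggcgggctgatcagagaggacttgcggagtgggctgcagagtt
Ncf1: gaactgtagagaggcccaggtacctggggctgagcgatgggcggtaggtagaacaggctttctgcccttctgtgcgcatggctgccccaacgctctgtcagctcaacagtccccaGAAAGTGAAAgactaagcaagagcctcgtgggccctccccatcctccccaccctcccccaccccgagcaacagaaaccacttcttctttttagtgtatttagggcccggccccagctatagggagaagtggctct
The Cybb window held 4 of the 5 motifs: the CCAAT box at 203 and 79 bases before the start, the AP-1 motif at 166, the interferon-stimulated element at 52 and the reverse complement of GAGGAA at 14, with no overlap between matches. The Ncf1 window held the interferon-stimulated element alone, at 135 bases before the start, and the Cyba and Nox4 windows held none of the 5. Among the windows not shown, those of Nox1 and Duox1 held GAGGAA alone, in Duox1 as its reverse complement. The Duox2 window held the AP-1 motif and the TATAAA box. Of 33469 RefSeq windows of this length, 23.3% held GAGGAA, 34% the CCAAT box, 6.34% the AP-1 motif, 3.41% the interferon-stimulated element and 12.9% the TATAAA box. These matches are letters in a window and were not tested as binding sites. RefSeq windows were matched for 7 of the 9 genes, and not for Ncf4 and Rac2.

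The libraries of a group differed in tissue makeup, and this bears on every value that follows. Total counts lay between 16550007 and 17724689. The summed level of 9 cardiomyocyte markers was 2319 and 1935 CPM (TMM-normalised counts scaled to a common library size) in MOD 1 and MOD 2, 21301 CPM in MOD 3 and 33851 to 58403 CPM in XHT, with Myh6, the cardiac myosin heavy chain, at 338, 178 and 3521 CPM in MOD and 9624, 5458 and 2316 CPM in XHT. The muscle that defines the labelled tissue took a small share of the RNA in 2 of the 3 MOD libraries. By the summed markers MOD 3 thus stood between the other MOD libraries and the XHT libraries, while its Myh6 level lay within the range of XHT. In bulk tissue, fewer cells of a type and less RNA per cell cannot be told apart.

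Transcripts of the membrane pair of the phagocyte oxidase were several-fold lower in the XHT libraries. Cybb stood at 219.9, 231 and 166 CPM in MOD 1, 2 and 3 and at 23.4, 32.3 and 26.7 CPM in XHT 1, 2 and 3. All XHT values were far below the lowest MOD value, that of MOD 3. The fitted difference was -2.90 ± 0.23 (log2 fold change ± SE), or 7.48-fold lower in XHT, at a Benjamini-Hochberg adjusted p of 0.00717 (edgeR quasi-likelihood), in the contrast on which it was chosen. In the authors' deposited table Cybb had the sixth lowest p of 19633 genes. Cyba stood at 113, 89.0 and 56.3 CPM in MOD and 18.0, 32.3 and 20.4 CPM in XHT. The groups did not overlap, and MOD 3 was again the lowest of its group, nearest to XHT 2, the highest of the other. The log2 fold change of Cyba was -1.87 ± 0.33 SE.

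Among the cytosolic subunits, Rac2 passed the threshold as lower in XHT, and Ncf4 and Ncf1 did not pass. Rac2, the Rac GTPase of blood cells, stood at 34.7, 36.5 and 27.3 CPM in MOD and 16.2, 15.9 and 9.80 CPM in XHT, without overlap (log2 fold change -1.23 ± 0.24 SE). Ncf4, whose product binds a membrane lipid and helps assembly on phagosomes, stood at 22.7, 23.5 and 11.7 CPM in MOD and 6.78, 11.5 and 3.47 CPM in XHT. MOD 3 and XHT 2 all but touched on this scale, and in deposited FPKM they crossed, at 7.56 and 7.61. The log2 fold change of Ncf4 was -1.41 ± 0.46 SE. Ncf1, the organiser that carries the activating phosphorylation, stood at 49.0, 37.5 and 59.4 CPM in MOD and 77.7, 60.3 and 57.5 CPM in XHT. Here the groups overlapped, with MOD 3 above XHT 3, and 2 of the 3 XHT libraries were above every MOD library. The log2 fold change of Ncf1 was 0.42 ± 0.22 SE on the TMM scale and 0.04 with libraries scaled to total counts, a scaling that moves the median of all genes from -0.02 to -0.42.

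The catalytic chains outside the phagocyte enzyme differed in level by orders of magnitude. Nox4 stood at 36.8, 27.6 and 21.4 CPM in MOD and at 4.25, 8.16 and 2.04 CPM in XHT. The groups did not overlap, and the fitted difference was -2.56 ± 0.49 (log2 fold change ± SE), 5.92-fold lower in XHT. Nox1, a catalytic chain best known from colon epithelium, had 4, 3 and 1 counts in MOD 1, 2 and 3 and 0 counts in all 3 XHT libraries, where 0 allows up to 0.188 to 0.204 CPM per library. That limit lies above its MOD mean of 0.137 CPM, so no fold is given, and the exact counting interval of the pooled ratio (8 counts against 0) had a lower limit of 1.33. Its interval in the table overlaps that of Cstf2 on the other strand by 414 bases, and since the use of strand in counting is not given, its few reads cannot be assigned with certainty. Duox1 had 41, 7 and 3 counts in MOD and 8, 9 and 1 in XHT, so MOD 1 held most of the MOD reads and the groups overlapped. Duox2 had 14, 16 and 8 counts in MOD and 2, 1 and 3 in XHT, without overlap. The MOD to XHT ratio of pooled counts was 2.21 for Duox1 (95% exact counting interval 1.27 to 4.01) and 4.93 for Duox2 (2.07 to 14.3). These intervals cover counting error only.

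**Figure D1:**
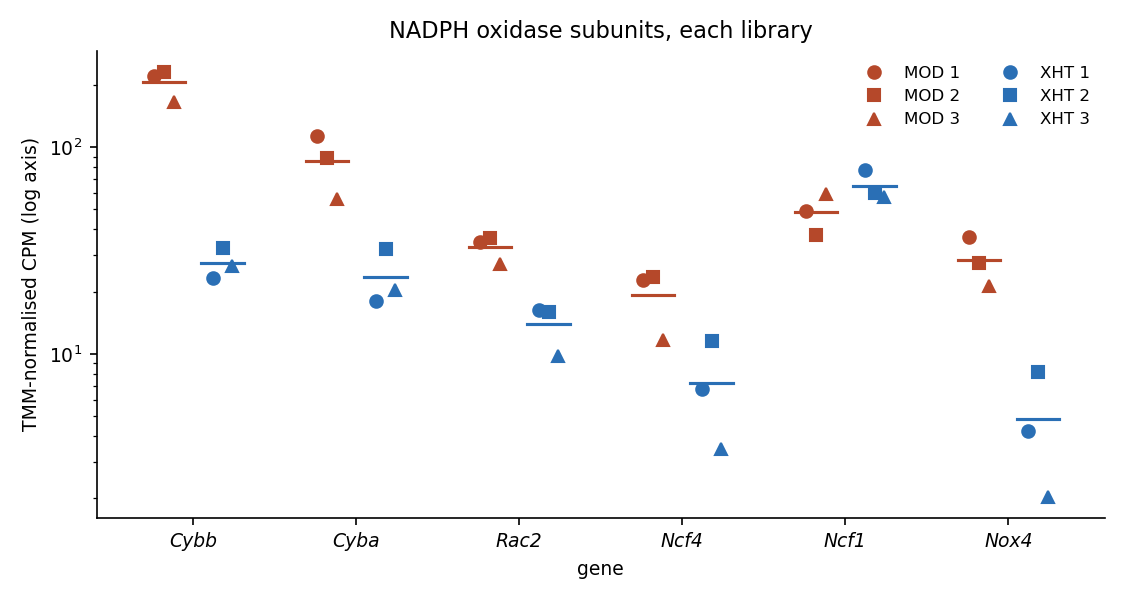
TMM-normalised CPM (log axis) of 6 subunit genes in each library, MOD in red and XHT in blue, with a bar at each group mean (n = 3 each). For Cybb, Cyba, Rac2, Ncf4 and Nox4 all XHT points lie below the MOD points, by the narrowest margin for Ncf4 (11.7 against 11.5 CPM), and for Ncf1 the groups overlap.

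Of the 9 genes, 6 had enough counts to be tested, and Nox1, Duox1 and Duox2 did not. Called lower in XHT were 4 of the 6 (Cybb, Cyba, Rac2 and Nox4) and called higher were 0 (also 0 at an unadjusted p under 0.05 by edgeR, and by DESeq2), where 16.1% of all tested genes were called lower, 12.4% higher and 28.5% in either direction. Ncf4 and Ncf1 did not pass, at Benjamini-Hochberg adjusted p-values of 0.0574 and 0.176 (edgeR quasi-likelihood). CPM values of the 3 XHT libraries were all below the 3 MOD libraries for 7 of the 9, including Nox1 and Duox2 at a few counts, against 26.6% of tested genes, and 0 had all XHT libraries above MOD, against 24.7% (51.3% without overlap in either direction). The genes were chosen on this contrast, so nothing is read from these counts.

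Whether a subunit passed the threshold rested on single libraries, while the fold changes moved less. Without XHT 1, 0 subunits were called, and the adjusted p of Cybb was 0.0528 (edgeR quasi-likelihood), the highest over its alternatives, which reached down to 9.51e-25 with DESeq2. Without MOD 1 only Cybb was called among them. Without MOD 2, 3 were called lower (Cybb, Cyba and Nox4), and without XHT 3, 2 (Cybb and Nox4). Without MOD 3, 6 were called lower, Duox2 and Ncf4 among them, and Ncf1 was called higher, at a log2 fold change of 0.61 and an adjusted p of 0.0477 (edgeR quasi-likelihood), the lowest of any alternative run (0.0477 to 0.893). Without XHT 2, 5 were called lower, with Ncf4. Over these 6 fits the log2 fold change of Cybb ran from -3.02 to -2.79, that of Nox4 from -3.17 to -2.19 and that of Ncf4 from -1.90 to -1.06.

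**Figure D2:**
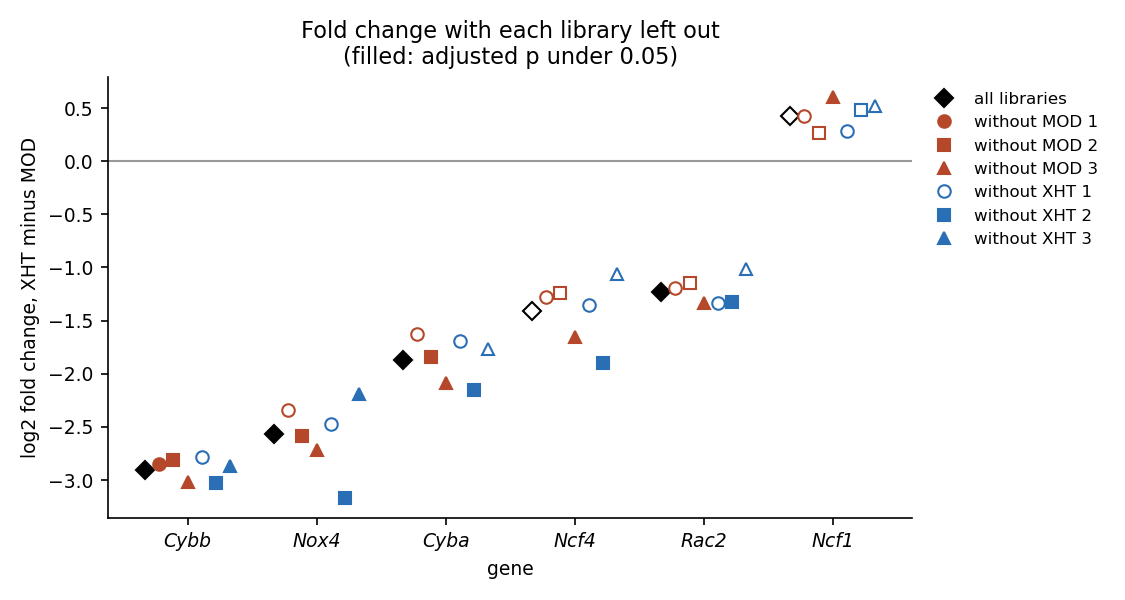
Log2 fold change (XHT minus MOD) of the 6 tested subunits from all libraries (diamond) and with each library left out in turn, filled where the adjusted p was under 0.05. Signs were the same in all 7 fits for each gene, and with XHT 1 left out no symbol is filled.

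Per unit of length, Cyba had the highest mean of the 9 subunits in both groups, though in XHT 1 it was below Ncf1. The order of means below Cyba differed between the groups. Mean deposited FPKM in MOD was 109 ± 35.9 for Cyba, 46.8 ± 8.19 for Cybb, 23.5 ± 3.64 for Rac2, 16.4 ± 3.58 for Ncf1, 12.6 ± 4.34 for Ncf4 and 7.42 ± 2.00 for Nox4 (SD, n = 3). Cyba lay above Cybb and Cybb above Rac2 without overlap, while Rac2 and Ncf1, Ncf1 and Ncf4, and Ncf4 and Nox4 overlapped. In XHT the order was Cyba at 30.5 ± 9.76 FPKM, Ncf1 at 22.5 ± 3.70, Rac2 at 10.2 ± 2.59, Cybb at 6.40 ± 1.03, Ncf4 at 4.81 ± 2.65 and Nox4 at 1.28 ± 0.81 (SD, n = 3). There Cyba and Ncf1 overlapped, as did Rac2, Cybb and Ncf4 as neighbours, and Ncf1 lay above Rac2 without overlap. Duox1, Duox2 and Nox1 were at or under 0.401 FPKM in every library of both groups. Rac1, the widely expressed Rac GTPase that can serve in place of Rac2, stood at 132 ± 14.3 FPKM in MOD, where it overlapped Cyba (115.9 to 141 FPKM against 71.0 to 142), and at 155.3 ± 8.50 FPKM in XHT, above all of them.

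Levels relative to Cybb in the same library, which do not depend on scaling between libraries, are given next as a description. Cybb was chosen for its low p in this contrast and had the most negative fold change of the 6 tested subunits, so the choice of divisor itself makes the ratios of the others higher in XHT. Rac2 was at 0.496, 0.497 and 0.517 of Cybb per length in MOD 1, 2 and 3, a near-constant ratio even in MOD 3, and at 2.18, 1.55 and 1.15 in XHT. Ncf1 was at 0.331, 0.242 and 0.532 of Cybb in MOD and at 4.93, 2.77 and 3.20 in XHT, so it was the less abundant of the pair in every MOD library and the more abundant in every XHT library. Cyba was at 2.86, 2.15 and 1.89 times Cybb in MOD and at 4.27, 5.56 and 4.26 times in XHT, a smaller gap between the groups.

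**Figure D3:**
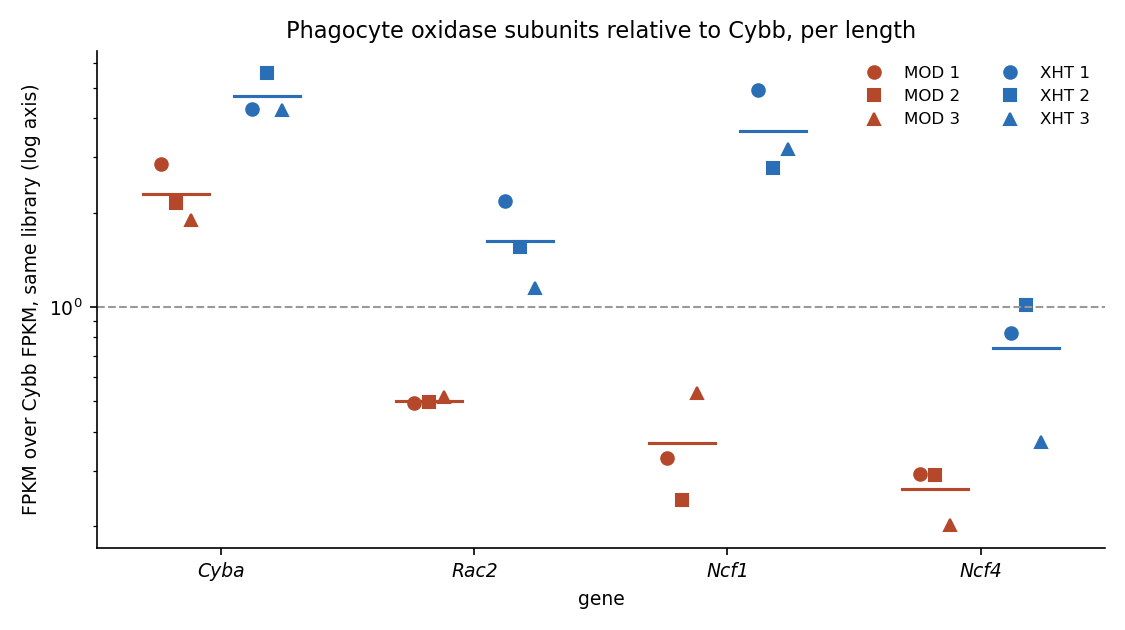
Deposited FPKM of 4 phagocyte oxidase subunits divided by the FPKM of Cybb in the same library (log axis, dashed line at 1), MOD in red and XHT in blue, with a bar at each group mean (n = 3 each). Cybb, the divisor, was chosen on this contrast, which by itself raises the XHT ratios, and Ncf1 goes from 0.242 to 0.532 in MOD to 2.77 to 4.93 in XHT.

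By position in the deposited table, whose genome build is unnamed, 2 pairs of the genes lie in the same region of a chromosome. Ncf4 (119482272 to 119499425) and Rac2 (119783849 to 119797098) lie 284 kb apart on chromosome 7. Duox2, Duoxa2, Duoxa1 and Duox1 lie in that order on chromosome 3, with 784, 970 and 1989 bases between them. Cybb (14578264 to 14612547) and Nox1 are on chromosome X, Cyba on 19, Ncf1 on 12 and Nox4 on 1. All 9 are annotated as protein-coding.

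Of 16 oxidase partner genes listed, 11 were tested, of which 3 were lower in XHT, 1 was higher and 7 did not pass (background 16.1% lower and 12.4% higher), with a median log2 fold change of -0.67 against -0.02 over all tested genes. Hvcn1, the proton channel that balances the charge of the phagocyte oxidase, fell by 2.23 ± 0.35 on the log2 scale. Arhgdib, the inhibitor that holds Rac in the cytosol of blood cells, fell by 0.80 ± 0.23, a call that was lost with no count filter, with the replicate number as a block and without MOD 1, MOD 2, XHT 1 or XHT 3. Poldip2, a Nox4-associated protein, rose from 37.9, 45.6 and 91.9 CPM to 149, 141 and 188 CPM (log2 fold change 1.45 ± 0.35 SE), and so moved opposite to Nox4 itself. For Poldip2, MOD 3 lay between the other MOD libraries and XHT, as the summed cardiomyocyte markers did, and the part of muscle content was not tested. The inhibitor Arhgdia (log2 fold change -0.67 ± 0.25 SE) and Rac1 (0.20 ± 0.18) did not pass, nor did Rap1a (0.23 ± 0.17), a small GTPase that copurifies with the phagocyte cytochrome. With scaling to total counts the values of Rac1 and Rap1a turned to -0.20 and -0.17. Rac3 (-0.76 ± 0.45) and the scaffolds Sh3pxd2a (0.73 ± 0.46) and Sh3pxd2b (-0.31 ± 0.26) did not pass, nor did Duoxa1 (-0.71 ± 0.53). Noxo1, the organiser of the Nox1 enzyme, had 0 counts in all 6 libraries, its activator Noxa1 had 1, Nox3 had 2, and Duoxa2 was also too low to test. Leaving out MOD 1 or MOD 2 left 1 partner called lower, and leaving out XHT 1 or XHT 3 left 0. The call of Poldip2 was lost in each of those 4 fits, and leaving out MOD 3 gave 4 partners lower and 2 higher.

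Of 23 tested genes that bring the phagocyte oxidase into action, 13 fell, 0 rose and 10 did not pass, 3 of them with positive values (Prkca, Pla2g4a and Tiam1). Over all tested genes 16.1% fell and 12.4% rose. By edgeR at an unadjusted p under 0.05 and by DESeq2, 0 rose as well, and the median log2 fold change was -1.36. Itgb2, the shared chain of the leukocyte integrins, fell from 65.4, 71.4 and 47.5 CPM in MOD to 15.1, 17.8 and 9.66 in XHT (log2 fold change -2.11 ± 0.28 SE). Its partner chain Itgam fell by 1.67 ± 0.26 on the log2 scale. Fcgr1a, the high-affinity IgG receptor, fell by 2.25 ± 0.35. Prkcd, a protein kinase C that phosphorylates p47phox, fell from 44.7, 47.2 and 34.9 CPM to 12.6, 18.9 and 18.0 CPM (log2 fold change -1.36 ± 0.22 SE). For these 4 genes all XHT values were below all MOD values. Single libraries decided how many passed: 3 activation genes were called lower when MOD 1 was left out, 7 for MOD 2, 5 for XHT 3 and 0 for XHT 1.

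**Figure D4:**
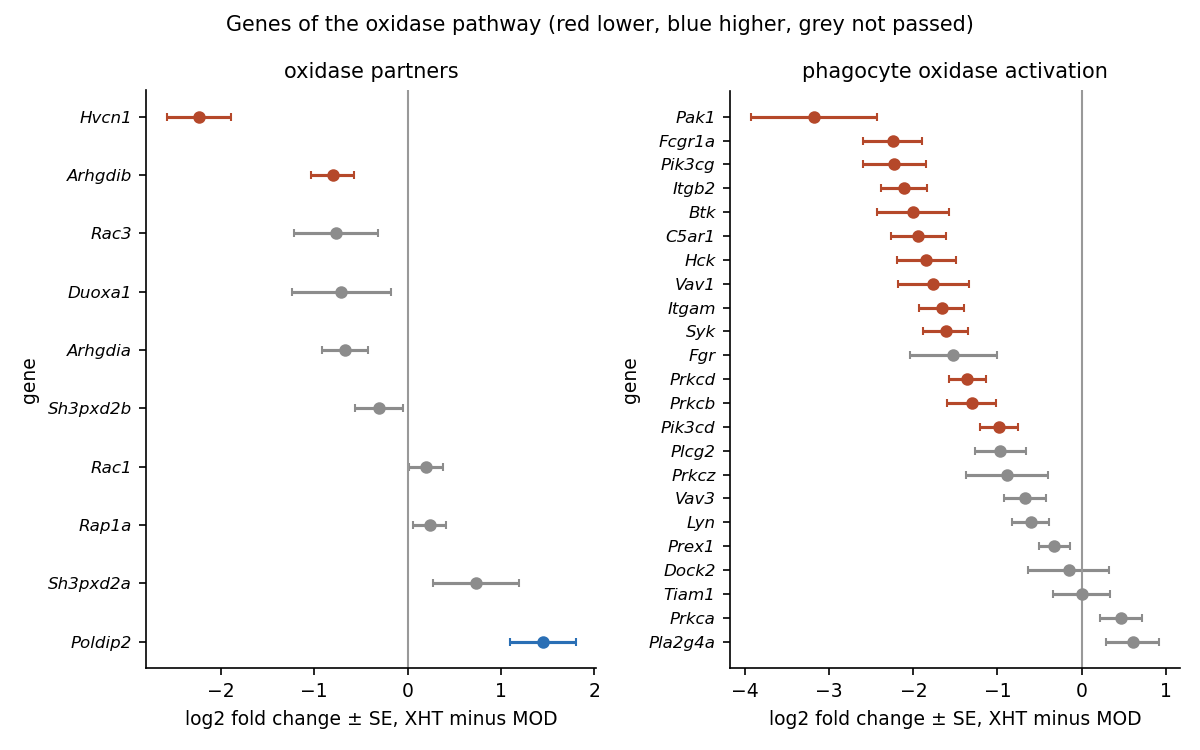
Log2 fold change (XHT minus MOD) with its SE for 10 of the 11 tested oxidase partners and the 23 tested activation genes, red where lower and blue where higher at an adjusted p under 0.05, grey where not passed. Activation genes lie mostly to the left, with 13 red and 0 blue, and among the partners only Poldip2 is blue.

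Most pan-leukocyte markers and many macrophage and monocyte markers moved with Cybb, though not all. Of 7 pan-leukocyte markers 6 fell (16.1% of all tested genes did), and their summed level was 583 to 727 CPM in MOD and 251 to 373 CPM in XHT. Of 15 macrophage and monocyte markers 9 fell, 1 rose (Cd163, a scavenger receptor of resident macrophages) and 5 did not pass. Those that did not pass were Cd14 (log2 fold change -0.78 ± 0.26 SE), Mrc1 (-0.37 ± 0.19), C1qb (-0.26 ± 0.20), C1qc (-0.21 ± 0.22) and Mertk (0.17 ± 0.17). The sums of the macrophage and monocyte list were 2520 to 4264 CPM in MOD and 960 to 1330 CPM in XHT. None of the markers of these 2 lists was at 0 in any library. Relative to these sums Cybb was lower in XHT, though not relative to every marker: Trem2 (10.1-fold lower) and Gpnmb (9.25-fold) of the same list had larger fold changes than Cybb (7.48-fold), and Aif1 (6.99-fold) and Cd68 (6.98-fold) similar ones. Cybb was chosen for its low p in this contrast, which by itself makes its ratios to other genes lower in XHT. These ratios are therefore a description. Cybb equalled 30.3%, 32.0% and 28.4% of the pan-leukocyte sum in MOD 1, 2 and 3 and 7.90%, 8.67% and 10.6% in XHT. Within that sum, Cd48, which did not pass, stood at 179, 184 and 196 CPM in MOD and 121, 183 and 128 CPM in XHT. The share of Cd48 in the sum was thus larger in every XHT library than in any MOD library. Against the macrophage sum Cybb was 5.16%, 6.56% and 6.58% in MOD and 2.44%, 2.43% and 2.45% in XHT. Lyz2, the largest part of the macrophage sum, stood at 2258, 1851 and 1075 CPM in MOD and 296, 436 and 228 CPM in XHT. The share of Lyz2 in the sum was smaller in every XHT library than in any MOD library. Against the single gene Csf1r, the receptor that macrophages need to survive, the CPM ratio of Cybb was 1.01, 1.15 and 0.970 in MOD and 0.348, 0.413 and 0.314 in XHT. That of Cyba overlapped between the groups, at 0.516, 0.442 and 0.330 in MOD and 0.267, 0.412 and 0.240 in XHT. Csf1r itself fell by 1.36 ± 0.20 on the log2 scale, the lysosomal protein Cd68 by 2.80 ± 0.36 and the common leukocyte antigen Ptprc by 1.19 ± 0.23. The part of cell number in the lower subunit levels was not tested.

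Neutrophils are the other main carriers of this enzyme. Their tested markers mostly had higher values in XHT, with overlap between the groups for most. Of 12 neutrophil markers 6 were tested and 0 passed by edgeR without covariates or by DESeq2 (2 at an unadjusted p under 0.05 by edgeR, Mmp8 and S100a8, both with higher values in XHT). With the replicate number as a block, S100a8 and S100a9 passed as higher, though these numbers were not taken to pair the libraries. The median log2 fold change of the 6 was 2.08, and 5 were positive, with sums of 18.0 to 84.2 CPM in MOD and 38.2 to 148 CPM in XHT, and Ltf at 0 in all libraries. Much of the MOD sums was Lcn2, the tested marker with a negative value (log2 fold change -0.078 ± 0.43 SE). Lcn2 stood at 11.9, 39.0 and 14.9 CPM in MOD and 17.6, 21.2 and 23.6 CPM in XHT. Mmp8, a granule collagenase, stood at 0.738, 2.77 and 0 CPM in MOD and 18.3, 10.1 and 2.93 CPM in XHT, without overlap. S100a8, a calcium-binding protein of neutrophils and monocytes, stood at 1.37, 5.04 and 0.103 CPM in MOD and 35.0, 19.7 and 1.70 CPM in XHT. Its partner S100a9 stood at 3.53, 22.2 and 0.463 CPM in MOD and 54.8, 42.3 and 6.74 CPM in XHT, and both overlapped between the groups. Csf3r, the receptor for granulocyte colony-stimulating factor, ranged from 1.65 to 12.6 CPM in MOD and from 2.11 to 12.7 CPM in XHT.

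Nox4 moved with most of the fibroblast markers and with fewer of the smooth muscle and pericyte markers. Of 10 fibroblast markers 8 fell, against 16.1% of all tested genes, and 2 did not pass. Their summed level was 22625 to 62532 CPM in MOD and 2007 to 4924 CPM in XHT, with Col1a1 at a log2 fold change of -5.99 ± 1.29 SE. The makeup of this sum differed between the groups: Col1a1 and Col3a1 gave 74.3% to 74.7% of it in MOD and 6.18% to 42.6% in XHT, where Dcn, a matrix proteoglycan, gave 33.6% to 69.1%. Of 8 smooth muscle and pericyte markers 3 fell and 5 did not pass, and 2 of the 8 had positive values. Their summed level was 1558 to 2170 CPM in MOD and 966 to 1374 CPM in XHT. Nox4 equalled 1.69%, 1.38% and 1.37% of the smooth muscle sum in MOD and 0.441%, 0.594% and 0.158% in XHT. Against the fibroblast sum its share did not separate the groups, at 0.0442% to 0.0944% in MOD and 0.0789% to 0.212% in XHT. Against Pdgfra, a fibroblast receptor that itself fell by 0.74 ± 0.22 on the log2 scale, its CPM ratio was 0.173, 0.102 and 0.109 in MOD and 0.0364, 0.0512 and 0.0158 in XHT. Which way such a ratio goes depended on the marker. Pdgfra (1.67-fold lower), Dcn (1.49-fold) and Tcf21 (1.28-fold) had smaller fold changes than Nox4 (5.92-fold). Fap (16.6-fold), Lum (15.4-fold), Mfap5 (8.93-fold), Col1a1, Col3a1 and Postn had larger ones. The part of these cell types in the level of Nox4 was not tested.

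**Figure D5:**
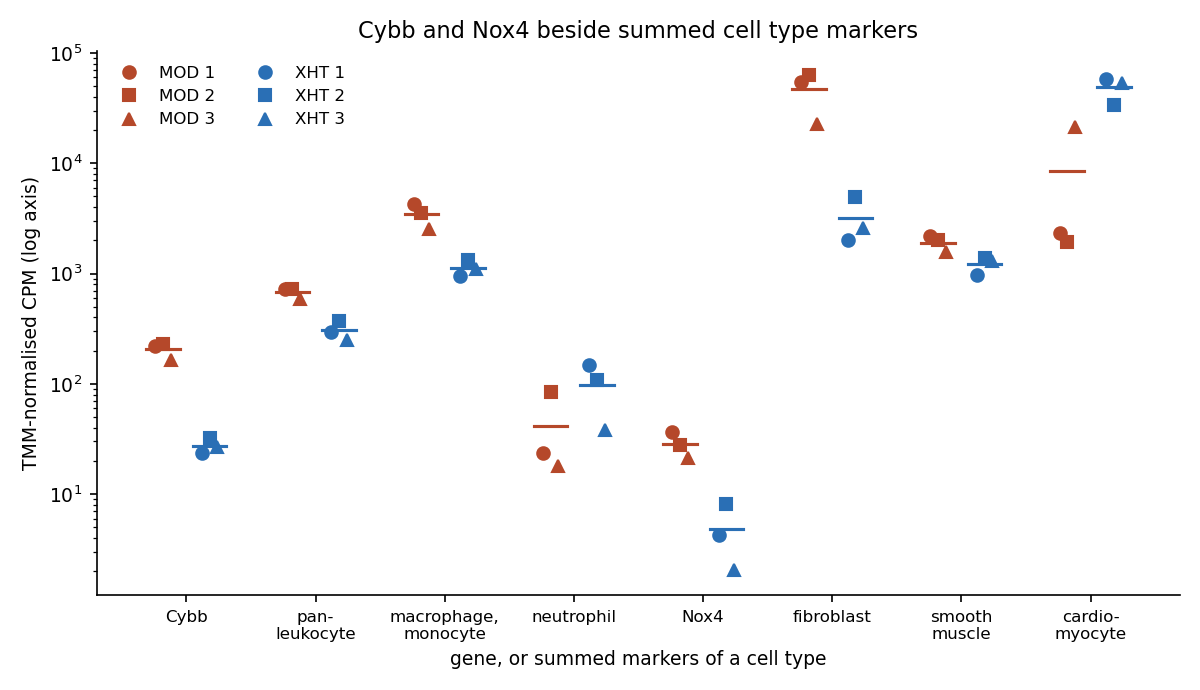
TMM-normalised CPM (log axis) of Cybb and Nox4 and of the summed markers of 6 cell types in each library, MOD in red and XHT in blue, with a bar at each group mean (n = 3 each). Leukocyte, macrophage, fibroblast and smooth muscle sums are lower in every XHT library than in any MOD library, the neutrophil sums overlap, and the cardiomyocyte sum of MOD 3 lies nearer to XHT than to MOD 1 and MOD 2.

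Of 15 tested transcription factors of myeloid cells, 7 fell, 1 rose and 7 did not pass (background 16.1% lower and 12.4% higher), with a median log2 fold change of -0.90. Spi1, which encodes PU.1, fell from 44.8, 47.9 and 27.6 CPM in MOD to 12.5, 20.0 and 8.23 CPM in XHT (log2 fold change -1.56 ± 0.36 SE). Cebpa, a factor of granulocyte and monocyte precursors, fell by 2.13 ± 0.38 on the log2 scale, and Irf5, an inflammatory macrophage factor, fell by 1.63 ± 0.26. The macrophage factor Maf fell by 0.90 ± 0.18. Cebpb, a factor of inflammatory gene expression, rose from 95.8, 102 and 96.8 CPM to 215, 139 and 242 CPM (log2 fold change 1.02 ± 0.24 SE). With MOD 1, XHT 1 or XHT 3 left out, 0 of them passed in either direction, and with MOD 2 left out 2 were lower and 0 higher.

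Of 22 tested genes listed under superoxide and peroxide removal, 11 rose, 2 fell and 9 did not pass (background 12.4% higher and 16.1% lower). Their median log2 fold change was 0.94. The list is wider than its name: the products of Gclc, Gclm, Hmox1 and Nqo1, for example, do not themselves remove superoxide or peroxide. Gclm and Nqo1 were among the risers. Cat, the peroxisomal catalase, rose from 77.7, 70.1 and 134 CPM in MOD to 202, 227 and 271 CPM in XHT (log2 fold change 1.31 ± 0.30 SE), and Txnrd2, the mitochondrial thioredoxin reductase, rose by 1.74 ± 0.37. The 2 that fell act in the endoplasmic reticulum: Gpx7 fell by 2.75 ± 0.52 and Prdx4 fell by 1.33 ± 0.23 on the log2 scale. For the risers Cat and Txnrd2, MOD 3 lay between the other MOD libraries and XHT, as the summed cardiomyocyte markers did, and the part of muscle content was not tested. None of the 11 rises passed once MOD 1, MOD 2, XHT 1 or XHT 3 was left out. Of the 2 falls, 0 passed once MOD 1, XHT 1 or XHT 3 was left out and 1 once MOD 2 was, while 3 genes passed as lower once MOD 3 was. With scaling to total counts, 7 rose and 4 fell.

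The genes whose pattern was most like that of Cybb were sought among 9013 genes with a symbol and a mean log2 CPM of at least 3. By Pearson's r of log2 CPM over the 6 libraries, the 8 nearest were Cdh11 (r = 0.998), Rnf122, Tgfb3, Bicc1, Fam149a, Naaa, Coro7 and St3gal4 (r = 0.995). Cdh11, a cadherin of mesenchymal cells, stood at 128, 116 and 88.2 CPM in MOD and 14.7, 17.9 and 14.5 CPM in XHT, and all 8 were lower in XHT. The measure is dominated by the step between the groups, which many genes share: 365 of the 9013 had the same rank order of libraries as Cybb. Of the other subunits, Cyba had r = 0.963, Nox4 0.937, Rac2 0.931, Ncf4 0.837 and Ncf1 -0.755. These values are descriptions over 6 libraries that share 1 contrast.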

How the data were processed

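Gene counts were analysed for 6 rat myocardial RNA-seq libraries, 3 MOD and 3 XHT, grouped by title. Per the labels' protocols, mRNA was captured on oligo(dT), the second strand held dUTP and the adapters carried molecular identifiers; whether copies were collapsed by them is not stated. The submitters' processing notes list featureCounts (1.5.0-p3), HISAT2 (2.0.5), DESeq2 (1.16.1) and StringTie (1.3.3b), with no role or order, and no source used here gives the build or the strand setting. The authors deposited raw counts and FPKM. In the deposited FPKM, counts over gene length are divided by a factor that follows the DESeq2 size factor, so they are already scaled between libraries. The authors' deposited group means (a signal of normalised counts), log2 fold changes and p-values served only for the rank of Cybb.

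XHT was compared with MOD on the counts with the edgeR quasi-likelihood test (edgeR 4.0.16, R 4.3.3; robust, no covariates, TMM), after filterByExpr with a minimum count of 10 and a minimum total of 15. P-values were adjusted by Benjamini-Hochberg over 14488 genes, with a threshold of 0.05. SE is the absolute log2 fold change over the square root of F. Log2 CPM used a prior count of 2. The procedure was tested on simulated data. A count of 0 allows 3 counts. Over all pairs of libraries the chi-square per degree of freedom was at least 45.6, so no library was a duplicate.

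The genes, the 6 related lists, the 10 marker lists and the rule for named genes were chosen with earlier results of these data known. Named were all 9 subunits, the oxidase partners, up to 4 called genes of lowest p in each other related list, the 8 genes most like Cybb and 9 set genes (Ptprc, Cd68, Csf1r, Spi1, S100a8, S100a9, Csf3r, Myh6 and Col1a1). Cstf2, Ltf, Mpo, Mmp8, Cd163, Cd14, Mrc1, C1qb, C1qc, Mertk, Trem2, Gpnmb, Aif1, Cebpb, Prkca, Pla2g4a, Tiam1, Col3a1, Dcn and Pdgfra were named after their values were seen. So were Cd48, Lyz2, Lcn2, Fap, Lum, Mfap5, Postn, Tcf21, Gclc, Gclm, Hmox1 and Nqo1. Of T cell markers 2 of 8 fell, of endothelial markers 1 of 8 fell and 1 rose, of cardiomyocyte markers 1 of 9 rose, of epithelial markers 1 was tested and did not pass, and of 6 B cell markers 0 were tested. Over all tested genes 16.1% fell and 12.4% rose. Genes not found under their symbol (Cybc1, Nos2, Pgd, Pecam1 and Ttn among them) were not analysed here, and some genes of the lists are counted but not reported here by name. Alternatives were DESeq2 size factors, scaling to total counts, no count filter, DESeq2 1.42.0 (Wald test), the replicate number as a block, leaving out mitochondrial genes, and leaving out each library; the legacy quasi-likelihood form was added after seeing the data. Upstream sequences were cut from RefSeq windows of build GRCr8.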

Additional observations from a re-analysis of the deposited data

How the results depend on the processing

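The directions of the 6 tested subunits were the same in all 13 alternatives, and which of them passed was not. Besides the left-out libraries given above, Ncf4 passed with scaling to total counts, with DESeq2 and with the replicate block, so 5 subunits were called lower there, and with no count filter Duox2 made 5. Of 41 named genes called, 41 remained called in the same direction with DESeq2 size factors, DESeq2, the legacy fit, without mitochondrial genes and without MOD 3, and 40 with scaling to total counts, no count filter, the block and without XHT 2. Leaving out MOD 2 kept 22, MOD 1 kept 14, XHT 3 kept 13 and XHT 1 kept 0.

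With scaling to total counts, 925 genes were called higher and 4320 lower over all genes, against 1792 and 2336; superoxide and peroxide removal gave 7 higher and 4 lower, NADPH supply 1 higher and 5 lower, and myeloid transcription factors 0 higher. NADPH supply gave 6 higher with DESeq2 and 5 with the replicate block, against 3. Signs turned with scaling to total counts for Rac1 (-0.20), Rap1a (-0.17) and Csf3r (-0.0094). With 1 library left out, Csf3r ran from -0.032 (without MOD 3) to 1.40. None of these passed, and the cause was not tested.

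Over the 6 fits that each left out 1 library, the calls ran from 4 to 3487 genes higher and 4 to 3421 lower. For the subunits they ran from 0 to 1 higher and 0 to 6 lower, for oxidase partners 0 to 2 and 0 to 4, for oxidase activation 0 to 1 and 0 to 14, for superoxide and peroxide removal 0 to 13 and 0 to 3, for other oxidant-producing enzymes 0 to 3 and 0 to 5, for NADPH supply 0 to 5 and 0 to 4, and for myeloid transcription factors 0 to 1 and 0 to 8. With 2 libraries left in a group, fewer samples alone lower the number of calls; which of this or the libraries' own differences lowered it was not tested.

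The replicate numbers of the labels were not taken to pair the libraries: the deviations of same-numbered libraries from their group means correlated at -0.07, 0.25 and 0.12 across genes. With the replicate block, 2101 genes were called higher and 2309 lower, Arhgdib was no longer called, and S100a8 and S100a9 passed as higher (log2 fold change 3.40 and 2.87). The order of levels per length held at all 11 places in both groups with counts over TMM library size and length. Of the 8 genes most like Cybb, 5 were among the 8 with a minimum mean log2 CPM of 1; Spearman's rho could not rank them because of ties.

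Depth limits Nox1, Duox1, Duox2 and Duoxa2, whose differences rest on a few counts per library.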

Other observations

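Of 11 tested other enzymes that make oxidants, 4 fell, 3 rose and 4 did not pass (16.1% of all tested genes fell and 12.4% rose), with a median log2 fold change of -0.34. Lox, the collagen crosslinking oxidase, fell from 466, 637 and 177 CPM in MOD to 38.3, 46.6 and 44.1 CPM in XHT, and Alox5, the leukotriene-forming lipoxygenase of leukocytes, fell by 1.92 ± 0.32 on the log2 scale. Maoa, the mitochondrial monoamine oxidase, rose from 29.7, 40.6 and 63.6 CPM to 109, 158 and 224 CPM, and Xdh, xanthine dehydrogenase, rose by 1.39 ± 0.32. In none of these 4 genes did the groups overlap. Mpo, the neutrophil peroxidase that uses the peroxide made from the oxidase's superoxide, was too low to test. The number that fell was 2 without MOD 1 or MOD 2, 0 without XHT 1 and 1 without XHT 3. No rise passed once MOD 1, MOD 2, XHT 1 or XHT 3 was left out.

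Of 14 tested enzymes that supply NADPH, the oxidase's substrate, 3 fell, 3 rose and 8 did not pass, shares near those of all tested genes, with a median log2 fold change of 0.13. In the pentose phosphate route, Tkt fell from 197, 174 and 133 CPM to 66.9, 88.1 and 70.6 CPM, and Pgls fell by 0.75 ± 0.20 on the log2 scale. Nadk2, the mitochondrial NAD kinase, rose by 1.28 ± 0.24, and Me1, cytosolic malic enzyme, by 0.98 ± 0.25, a call lost with scaling to total counts. The number called in each direction was 0 without MOD 1, MOD 2, XHT 1 or XHT 3, and without MOD 3 it was 4 lower and 5 higher.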
